A study of Mus musculus with 12 samples.

Results

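FRA-1 peaks were found in all 9 replicates of the experiment in 1372 of the 300608 regions that carried a peak in at least 1 replicate, or 0.456%. The regions were selected on the peak calls themselves: segments of the 3 deposited peak tables that overlapped or touched were merged, a replicate called a region when any of its segments there scored 0 or more, and regions called by all 9 replicates were kept. Their number, widths and scores are therefore given as a description, with no test. They held 12406 of the 375170 peaks, and 1343 of them had exactly 1 peak per replicate.

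Chromatin immunoprecipitation and sequencing (ChIP-seq) for FRA-1 was performed on adherent peritoneal macrophages of 8-week-old mice, either left unstimulated, stimulated for 1 h with lipopolysaccharide (LPS, a component of the bacterial outer membrane) or given apoptotic cells at a ratio of 1:5 for 1 h, with 3 replicates per group. The labels name no engineered allele in any group. They conflict on the dose of LPS (10 µg/mL or 1 µg/mL), on the strain (C57Bl/6 or a mixed 129/C57Bl6 background), on how the cells were obtained (plain lavage, or lavage 72 h after thioglycollate) and on the mice, since the design text counts 9 while the sample labels name 3 mice, each in all 3 groups. The score columns carry no mouse name, so replicates are numbered by their order in each table. No read counts come with the peaks and no input DNA was analysed here, so the depth of each library is unknown and the signal of these regions in input DNA was not tested. No peak table marks a cell type, and none of the 8 macrophage genes Spi1, Csf1r, Itgam, Adgre1, Cd14, Lyz2, Mertk and Cd68 had one of the 1372 regions inside it or within 10000 bp. The share over all protein-coding genes was 3.67%, so a count of none among so few genes is not read as a result.

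FRA-1, encoded by Fosl1, is a FOS family member of the AP-1 transcription factors. It lacks the strong activation domain of FOS and binds DNA as a dimer with a JUN protein, preferably at the short palindrome TGACTCA. In macrophages, AP-1 proteins are known to sit mostly at enhancers away from gene starts, together with the lineage factor PU.1, and to take part in the response to LPS.

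Windows at gene starts are printed here because they are the sites where sequence of a shared region could be read. RefSeq (GRCm38.p6) gives 32851 windows from 250 bases before to 50 bases after a gene start. Of these windows, 4 were overlapped by 3 of the shared regions. The windows are written 5′ to 3′ on the strand of the gene, with the stretch that lies in the shared region in capitals.
Gm20139, chr10:19141499-19141798, plus strand: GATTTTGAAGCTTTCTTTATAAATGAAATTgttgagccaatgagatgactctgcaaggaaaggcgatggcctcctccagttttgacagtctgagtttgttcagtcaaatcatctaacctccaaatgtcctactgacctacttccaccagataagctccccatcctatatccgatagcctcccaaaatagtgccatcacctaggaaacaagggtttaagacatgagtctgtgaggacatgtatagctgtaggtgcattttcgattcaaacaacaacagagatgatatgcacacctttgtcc
Gm2137, chr10:61781777-61782076, plus strand: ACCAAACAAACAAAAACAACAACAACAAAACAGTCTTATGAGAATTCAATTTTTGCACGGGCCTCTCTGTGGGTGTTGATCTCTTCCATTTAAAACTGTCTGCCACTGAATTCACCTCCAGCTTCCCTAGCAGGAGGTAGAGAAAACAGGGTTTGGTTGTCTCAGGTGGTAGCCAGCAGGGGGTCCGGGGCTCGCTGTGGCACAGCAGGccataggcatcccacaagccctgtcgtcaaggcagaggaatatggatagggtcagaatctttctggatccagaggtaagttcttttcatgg
AW549877, chr15:3995697-3995996, minus strand: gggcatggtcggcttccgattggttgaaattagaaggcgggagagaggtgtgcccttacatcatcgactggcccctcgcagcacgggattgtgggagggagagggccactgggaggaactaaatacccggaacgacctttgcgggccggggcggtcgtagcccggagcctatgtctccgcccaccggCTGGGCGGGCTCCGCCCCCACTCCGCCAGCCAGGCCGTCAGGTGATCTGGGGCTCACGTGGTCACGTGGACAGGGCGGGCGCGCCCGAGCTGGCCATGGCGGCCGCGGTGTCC
The window of Gm20139 shared 30 bases with its region, at positions -250 to -221 from the gene start, and all 9 replicates had a peak in these bases. The window of Gm2137 shared 209 bases and that of AW549877 shared 113 bases, but only 2 of the 9 replicates had a peak in either of these windows, LPS replicate 3 and apoptotic cells replicate 3 at Gm2137 and LPS replicate 3 and apoptotic cells replicate 2 at AW549877. The fourth window, that of Gm2093, shared 21 bases with the region at AW549877 through LPS replicate 3 alone.

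None of the 4 windows held the AP-1 motif TGACTCA on either strand, nor the looser TGANTCA, which includes it, nor the related palindrome TGACGTCA. In all windows the shares were 5.20%, 7.81% and 1.79%, and in the 1538 windows overlapped by any region they were 4.88%, 7.35% and 2.28%. With 4 windows, a share of 0 has a Wilson 95% interval of 0 to 49.0% (counting error only), which spans all of these shares. The sequences of the remaining shared regions were not used here. None of the 1005 RefSeq miRNA hairpins overlapped a shared region. The shared regions held only 413087 bases, and the share of hairpins overlapped by any region was not computed. This count is therefore not read as a result.

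Most regions of the genome were called by few replicates. The number fell from 269723 regions with a peak in 1 replicate to 16436 in 2 and 1042 in 8, and was 1372 in 9. The regions called by 8 of 9 replicates lie just outside the selection, and the missing replicate was not spread evenly. It was unstimulated replicate 1 in 453 regions, unstimulated replicate 2 in 352 and LPS replicate 2 in 166, while each of the other 6 replicates was missing in 1 to 24. Among these near misses, the highest score reached was 713.9. The shared regions made up 80.3% of the 1708 regions called in all 3 unstimulated replicates. They made up 31.4% of the 4374 called in all 3 LPS replicates and 32.7% of the 4202 called in all 3 apoptotic cell replicates. A replicate called 20977 to 28296 regions without stimulation, 39724 to 62885 after LPS and 31492 to 79424 with apoptotic cells. The part of these numbers in the 3 shares was not tested, and no treatment effect is read from the shares.

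**Figure D1:**
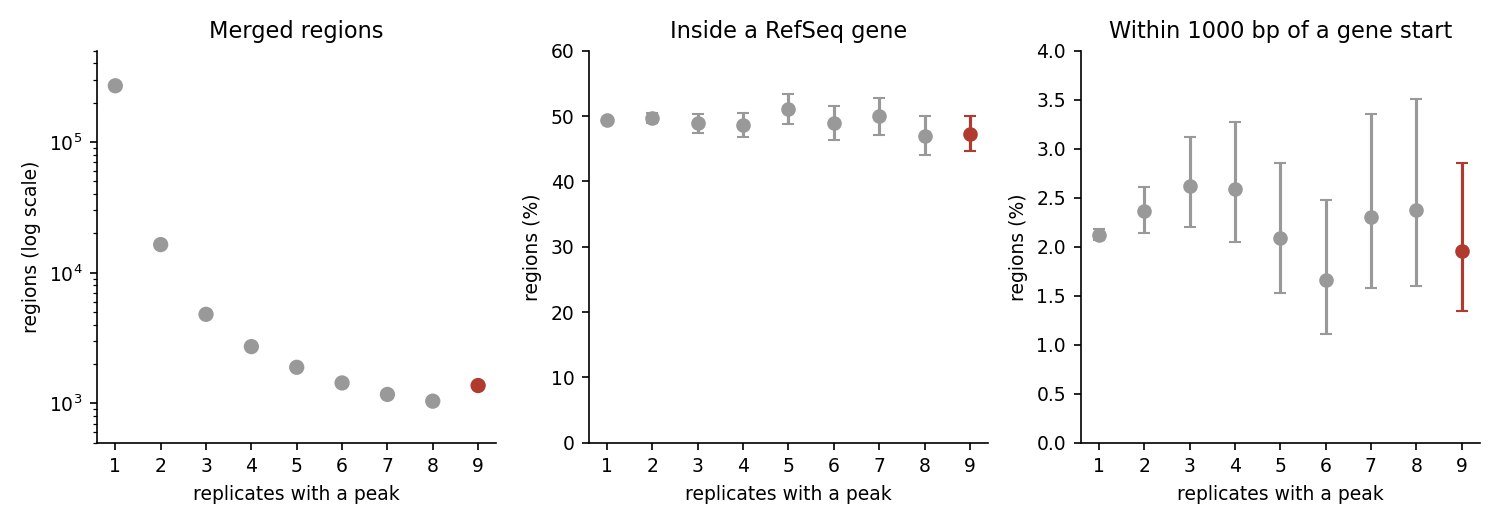
Regions by the number of replicates with a peak (x axis): their number on a log scale, the percentage inside a RefSeq gene and the percentage within 1000 bp of a gene start, with 95% Wilson intervals (counting error only). The 1372 regions with 9 replicates are in red. Their share inside a gene is 47.3% and their share near a gene start 1.96%, and both intervals overlap those of regions called in 8 replicates.

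The shared regions were short and lay on a common stretch. Their median width was 235 bp (quartiles 182 and 322 bp, range 173 to 38635 bp). Of the 1372, 585 were at most 200 bp wide, 371 were 201 to 300 bp, 356 were 301 to 500 bp, 56 were 501 to 1000 bp and 4 were wider. In 1371 of them (99.9%, Wilson 95% interval 99.6 to 99.99%) at least 1 base was covered by a peak of every replicate, and this common stretch was 110 bp long in the median (quartiles 108 and 113 bp).

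The peaks at these sites were close to the narrowest peak that each library contained. In unstimulated replicates 1, 2 and 3 the median peak at a shared region was 179, 169 and 125 bp wide, where the narrowest peak of the library was 172, 162 and 116 bp. In LPS replicates 1, 2 and 3 it was 118, 175 and 120 bp, against 108, 168 and 104 bp. In apoptotic cells replicates 1, 2 and 3 it was 174, 166 and 114 bp, against 166, 158 and 104 bp. The libraries fall into a narrow and a wide class by this floor, and neither class follows the treatment. Of all peaks at shared regions, 77.9% were within 20 bp of the narrowest peak of their library, compared with 29.6% of the peaks at regions called by 1 replicate and 74.9 to 81.5% at regions called by 3 to 8 replicates.

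**Figure D2:**
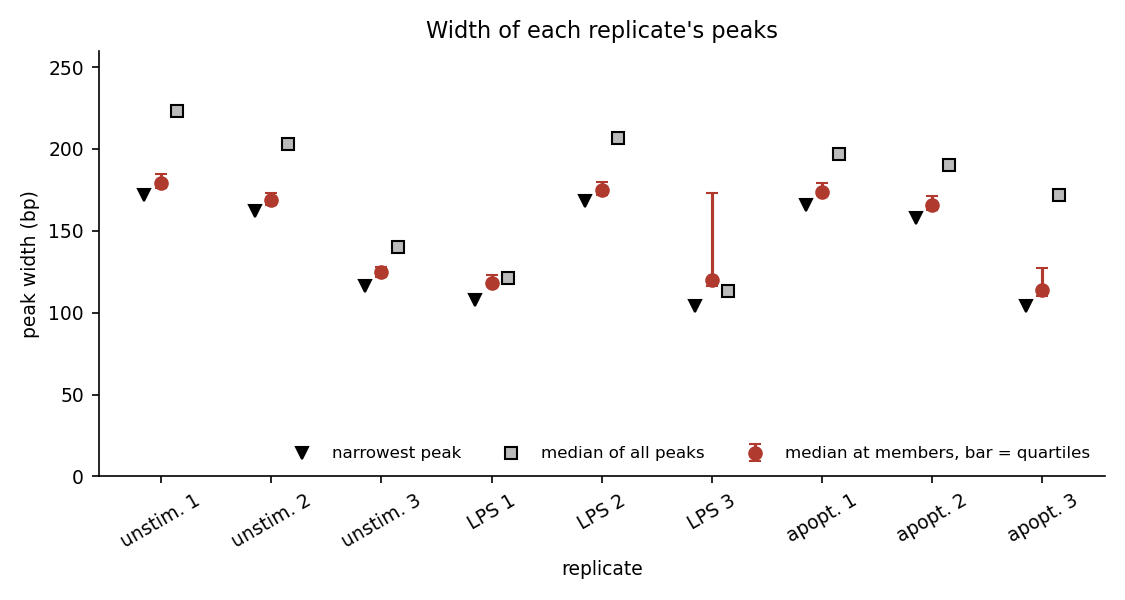
Peak width in bp (y axis) in each replicate (x axis). Triangles give the narrowest peak of the library, squares the median of all its peaks, and circles the median of its peaks at the 1372 shared regions, with bars from the lower to the upper quartile. The circles sit near the triangles in every replicate, and the squares lie above the circles in every replicate but LPS replicate 3 (113 bp against 120 bp).

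Narrow and wide peaks at a shared region mostly began or ended within a few bases of each other. Of the 1343 regions with 1 peak per replicate, 927 (69.0%) had at least 8 of the 9 peaks within 5 bp of their median start or their median end. The common edge was the start in 394 regions, the end in 532 and both in 1, and 416 had neither. The closer edge varied by 11 bp over the 9 replicates in the median, and the other edge by 70 bp. In 509 regions (37.9%) the closer edge agreed within 5 bp in all 9. From the common edge, the peak reached 112 to 124 bp in the median in the narrow libraries (unstimulated replicate 3, LPS replicates 1 and 3 and apoptotic cells replicate 3) and 165 to 178 bp in the other 5. Regions with fewer replicates also kept a close edge, with a median spread of 3 bp for 2 replicates, 6 bp for 5 and 9 bp for 8.

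The region beside Gm20139, chr10:19141350-19141528 in no RefSeq gene, shows the pattern. Its 9 peaks ended at base 19141527 or 19141528, at the last capital of the printed window. They were 178, 169 and 127 bp wide without stimulation, 117, 169 and 115 bp after LPS and 172, 164 and 111 bp with apoptotic cells. The scores were 229, 293 and 310 without stimulation, 439, 127 and 424 after LPS and 299.8, 355 and 264 with apoptotic cells, so LPS held both the highest and the lowest value. At AW549877, chr15:3995249-3995809, the 9 peaks began between bases 3995249 and 3995258, and 7 of them were 108 to 178 bp wide. The peaks of LPS replicate 3 (561 bp) and apoptotic cells replicate 2 (463 bp) were the ones that ran on into the window, and only that of LPS replicate 3 reached the gene start itself.

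**Figure D3:**
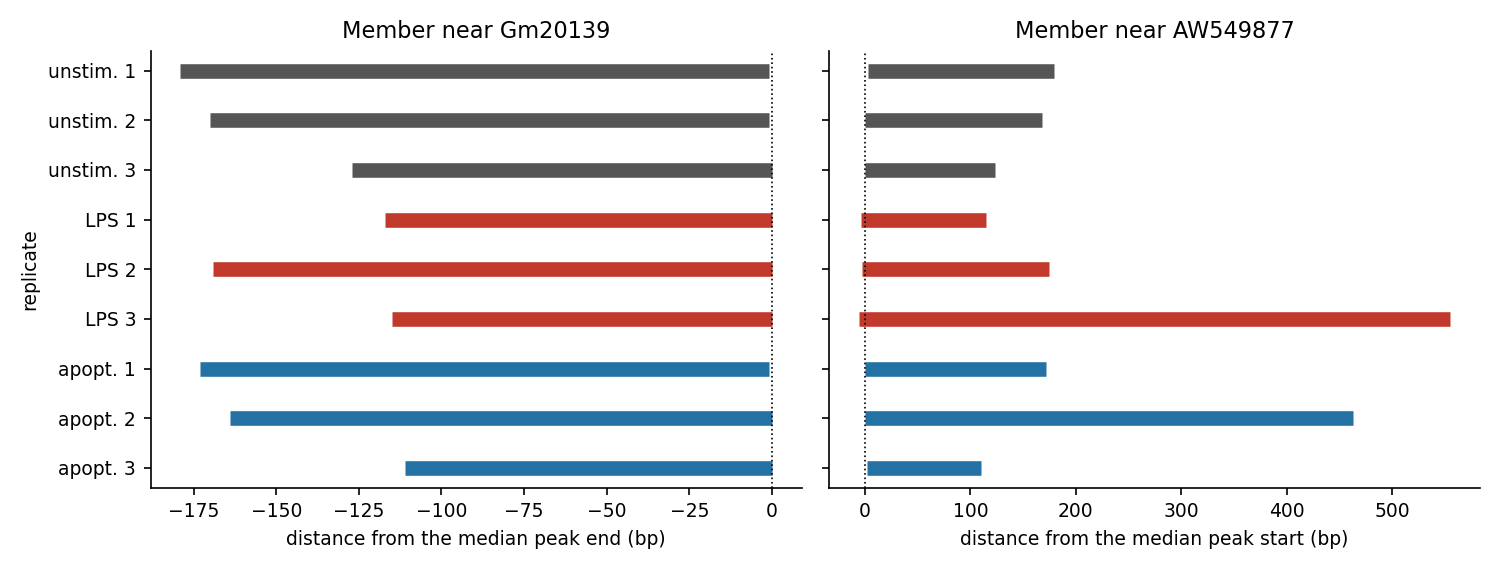
Extent of the 9 peaks at the regions near Gm20139 and AW549877, as the distance in bp from the median peak end or start (x axis, dotted line at 0), 1 bar per replicate coloured by group. All bars meet the dotted line within 6 bp, and their other ends differ between replicates.

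Scores are not expression or binding levels. The deposited score is a number that grows with the strength of the peak call, its lowest value was 50.01, and it stops at 3100 for all but 2 entries. It reads as a Phred-scaled p-value, although the sources used here do not name its scale, so it depends on depth. Scores of different replicates are set side by side below as a description only. At the shared regions the median score was 184, 220 and 343 in unstimulated replicates 1, 2 and 3, 386, 208 and 399 in LPS replicates 1, 2 and 3, and 299, 263 and 244 in apoptotic cells replicates 1, 2 and 3. The group means were 249 ± 83.2, 331 ± 107 and 269 ± 28.1 (SD, n = 3), and the groups overlapped. Within a region the highest of the 9 scores was 2.82 times the lowest in the median (quartiles 2.30 and 3.57).

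The highest and the lowest score of a region sat mostly in a few libraries. The highest score was in LPS replicate 3 in 631 regions, in LPS replicate 1 in 378 and in unstimulated replicate 3 in 227, all libraries of the narrow class. The lowest was in unstimulated replicate 1 in 417 regions, in LPS replicate 2 in 406 and in unstimulated replicate 2 in 225, all of the wide class. Apoptotic cells replicate 3, also of the narrow class, went the other way, with the highest score in 19 regions and the lowest in 130. Within the narrow class the median was 343 without stimulation, 386 and 399 after LPS and 244 with apoptotic cells. Within the wide class it was 184 and 220 without stimulation, 208 after LPS and 299 and 263 with apoptotic cells. A class held 1 or 2 libraries per group, and no order of the treatments is read from these values. Ranked among all regions of their own replicate, the shared regions had a median percentile of 80.7 in unstimulated replicate 1 and 97.8 in apoptotic cells replicate 3, with the other 7 replicates between. Most scores were moderate, since 1333 regions (97.2%) had a median score under 500. All 9 scores were at least 100 in 1195 regions (87.1%).

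**Figure D4:**
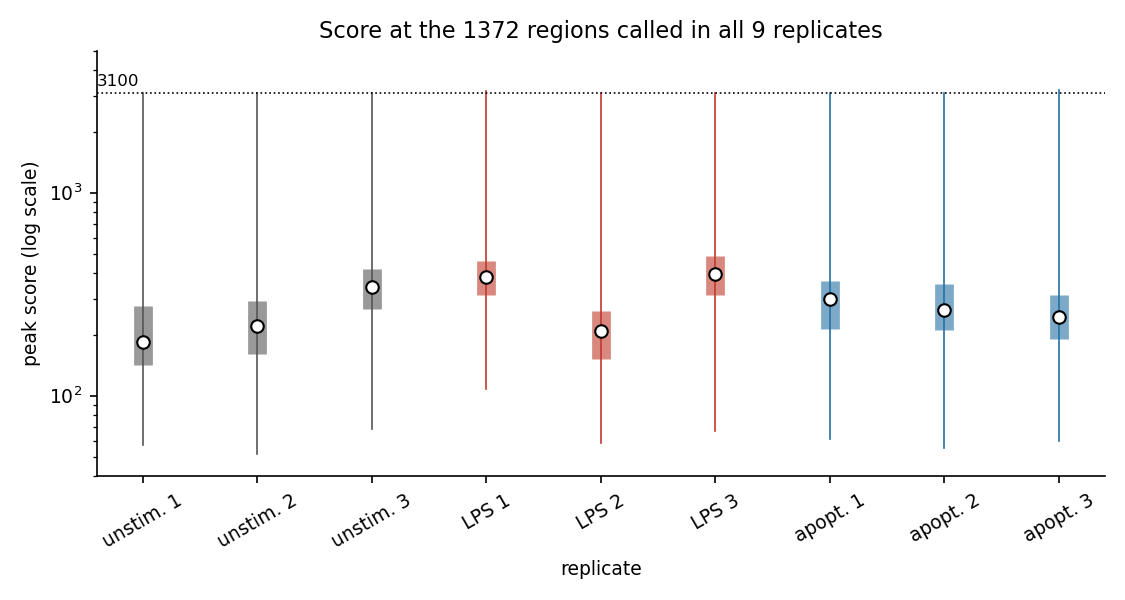
Score (y axis, log scale) of the 1372 shared regions in each replicate (x axis). Thin lines run from the lowest to the highest score, thick bars from the lower to the upper quartile, and circles mark the median, which runs from 184 in unstimulated replicate 1 to 399 in LPS replicate 3. The dotted line marks a score of 3100.

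The strongest and broadest regions were few and lay apart from the rest. Only 13 of the 1372 had a median score above 1000, 6 reached 3100 in at least 1 replicate and 4 reached it in all 9. The widest, chr9:2999890-3038524, spanned 38635 bp at the start of the assembled chromosome, was made of 25 peaks and held 3100 in 8 replicates and 3175 in LPS replicate 1. It was a single peak of 38525 and 38474 bp in LPS replicates 2 and 3, and 2 to 5 peaks in the other replicates, which together covered at least 37954 bp. The next, chr14:19415617-19419837, was 4221 bp wide and scored 3100 in every replicate, with peaks of 4070 to 4210 bp. Neither lay in a RefSeq gene, and both together held 42856 of the 413087 bases in all shared regions.

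A cluster on chromosome 2 held 4 shared regions in 5416 bp. The 2 outer ones, chr2:98662100-98663115 and chr2:98666053-98667515, scored 3100 in all 9 replicates, with peaks of 843 to 1013 bp and of 1156 to 1344 bp. Between them, chr2:98664806-98665345 scored 1618, 1106 and 1509 without stimulation, 1461, 1818 and 1402 after LPS and 1503, 2008 and 1292 with apoptotic cells. The groups overlapped there, and the fourth region of the cluster had a median score of 588. None of the 4 lay in a RefSeq gene.

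A further 2 capped regions lay in long non-coding RNA genes. The region chr9:35305108-35305724 in Gm33838 scored 3100 in 7 replicates, 3088 in LPS replicate 3 and 3189 in apoptotic cells replicate 3. The region chr17:4626089-4627036 in Gm34259 scored 3100 in all 3 unstimulated replicates, 3100, 2535 and 3100 after LPS, and 985, 2756 and 3100 with apoptotic cells. Its value in apoptotic cells replicate 1 was the only one of the 9 under 1000. Without that replicate the lowest score was 2535.

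Below the cap, Chl1, which encodes a cell adhesion molecule of neurons, held the strongest region inside a protein-coding gene, chr6:103648941-103649720. It scored 1837, 1640 and 1690 without stimulation, 1585, 1842 and 1297 after LPS and 1852, 2114 and 1241 with apoptotic cells, so the groups overlapped. The region chr12:3109628-3110229, in no RefSeq gene, scored 2451, 2473 and 2462 without stimulation, 2069, 2417 and 1433 after LPS and 2372, 2470 and 1702 with apoptotic cells. Every unstimulated value was above every LPS value there, and one of the apoptotic cell values lay among the unstimulated ones. A further 3 regions outside RefSeq genes completed the 10 with the highest lowest score, chr2:60402656-60402978 with scores of 834 to 1801, chr6:132463576-132463937 with 787 to 2229 and chr1:12644697-12644986 with 769 to 2016.

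**Figure D5:**
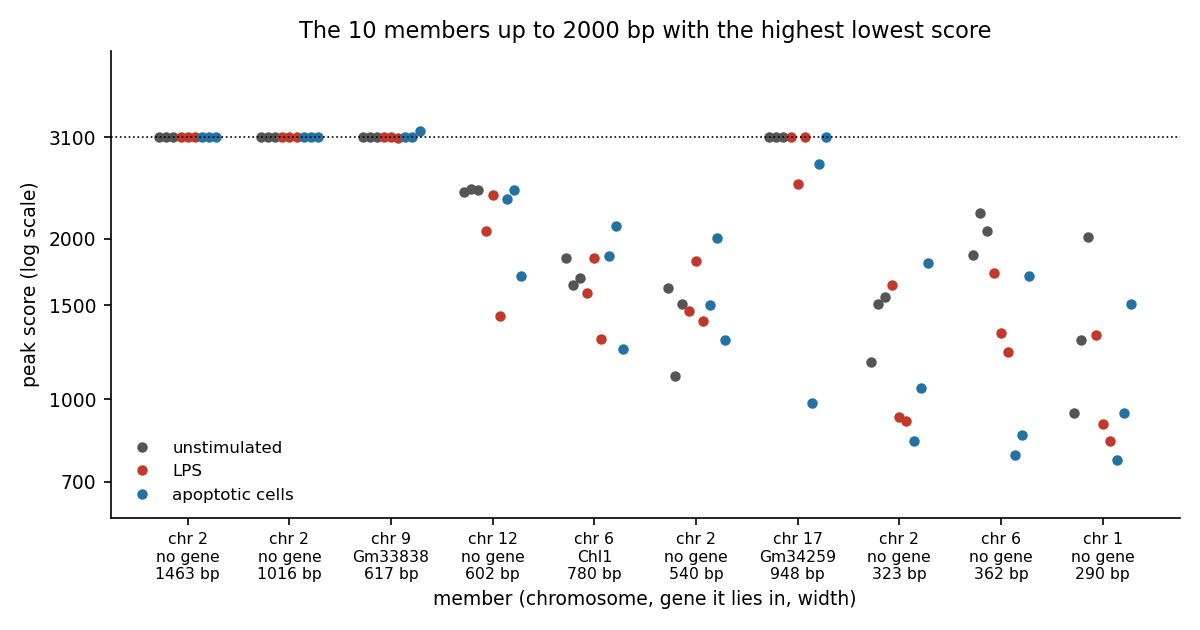
Scores in the 9 replicates (points, coloured by group, in the order of replicates 1 to 3) of the 10 regions of at most 2000 bp with the highest lowest score. The y axis is a log scale and the dotted line marks 3100. The first 3 regions sit at the cap in nearly every replicate (lowest value 3088), and the last, on chromosome 1, runs from 769 to 2016.

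At the other end, the lowest single score was 51.51, in unstimulated replicate 2 at chr12:73618486-73618748 inside Prkch, which encodes a protein kinase C isoform. The scores there were 163, 51.5 and 98.9 without stimulation, 170, 65.6 and 191 after LPS and 139, 55.0 and 146 with apoptotic cells. The second replicate of each group was the lowest at this site. The next weakest regions lay in Chd1, which encodes a chromatin remodeller (lowest score 56.3), in Ckap5, which encodes a microtubule-binding protein (57.1), in the long non-coding RNA gene Gm13479 (58.2) and in Rbm27 (59.6).

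The position of the shared regions was close to that of all merged regions. Most of these, 269723 of 300608, were called by 1 replicate only, so the likeness does not show where FRA-1 binds. Of the regions called by 8 replicates, 47.0% lay inside a gene, and their median distance to a gene start was 42313 bp. Of the 1372, 649 lay inside a RefSeq gene (47.3%, Wilson 95% interval 44.7 to 49.9%), compared with 49.5% of all regions. The gene was protein-coding in 564 and a long non-coding RNA in 76, and 723 regions lay in no gene. Gene starts on chromosome 18 were not used here, so the 43 regions on it and 2 on unplaced sequences are left out of the shares near a start. For the other 1327 regions the median distance to a start was 41711 bp, against 42096 bp for all regions. Within 5000 bp of a start lay 165 regions (12.4%, Wilson 95% interval 10.8 to 14.3%), compared with 10.8% of all regions. Within 1000 bp lay 26 (1.96%, Wilson 95% interval 1.34 to 2.86%), compared with 2.15%. None of the 1327 had its centre within 100 bp of a start, which allows a share of up to 0.226% (3 counts of the total), and 0.199% of all regions did.

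Among the 26 regions within 1000 bp of a start, 16 lay upstream and 10 downstream. Housekeeping genes were among them. Regions lay 638 bp upstream of Rpl22, a ribosomal protein gene (scores of 93.6 to 509), 677 bp upstream of Gtf2a2, a subunit of the general transcription factor TFIIA (159 to 485), and 921 bp downstream of the start of Psmd9, a proteasome assembly chaperone (299.8 to 459). Others lay 382 bp upstream of Ambra1, an autophagy regulator (224 to 572), 601 bp upstream of Rab11b, a small GTPase of recycling endosomes (229 to 512), and 754.5 bp upstream of Crebzf, a basic leucine zipper factor (67.1 to 125). Metabolic and transport genes in this set were Nqo2, a quinone reductase (880 bp downstream, 175 to 519), Pdk3, a pyruvate dehydrogenase kinase (981 bp upstream, 141 to 368), Slc7a6, an amino acid transporter (783 bp upstream, 134 to 407), and Slc41a2, a magnesium transporter (817 bp upstream, 84.7 to 528). These genes were picked from the 26 for their known functions after their values were seen.

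Few genes of any kind had a shared region nearby. In 10 gene lists of the macrophage response, 3 of 139 genes (2.16%) had a shared region inside them or within 10000 bp, beside 3.67% of all 21896 protein-coding genes (803), a share too near for the lists to stand apart. No gene did in the lists of AP-1 genes (0 of 15), macrophage lineage factors (0 of 14), inflammatory cytokines (0 of 15), chemokines (0 of 15), NF-kB and LPS signalling (0 of 16), MAP kinase phosphatases and feedback (0 of 14), matrix proteases and urokinase (0 of 12) or antioxidant and arginine genes (0 of 12). The integrin list held 1 of 11, Itga4, and the list of engulfment and lipid handling held 2 of 15, among them Tyro3.

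Itga4 encodes the alpha 4 integrin subunit, a receptor for VCAM1 and fibronectin. Its region, chr2:79333591-79333845, lay 477 bp beyond the gene and inside Cerkl, and scored 162, 244 and 331 without stimulation, 321, 166 and 265 after LPS and 255, 239.9 and 290.03 with apoptotic cells. Tyro3 encodes a receptor tyrosine kinase of the TAM family that binds apoptotic cells through bridging ligands. Its region, chr2:119824866-119825063, lay 6762 bp away and scored 237, 142 and 301 without stimulation, 422, 118 and 384 after LPS and 282, 247 and 265 with apoptotic cells. LPS replicate 2 held the next to lowest of the 9 scores at Itga4 and the lowest at Tyro3, and the groups overlapped at both.

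None of 5 genes measured in the study, Il6, Lcn2, Il12b, Mmp13 and Saa3, had a shared region within 10000 bp, beside 3.67% of all protein-coding genes. The paper reports FRA-1 at the Il6 and Lcn2 promoters, especially after LPS. It drew on these ChIP-seq reads, mapped and called anew, and on ChIP with quantitative PCR. A site without a peak in every unstimulated replicate is left out of the present selection, so the absence here does not bear on that report. The nearest one to Il6, which encodes the cytokine interleukin 6, lay 258314 bp away, and the best region within 10000 bp of Il6 had a peak in 3 replicates. For Lcn2, which encodes the iron-carrier-binding protein lipocalin 2, the distance was 487802 bp and the best region had a peak in 1 replicate. For Saa3, an acute-phase protein gene and the nearest of the 5, these values were 26440 bp and 1 replicate, and for Fosl1 itself 64834 bp and 2 replicates. Csf1r and Junb had the best supported regions among the genes looked up, each with a peak in 6 of 9 replicates within 10000 bp. Of 23 genes at repeat arrays of the mouse assembly, 9 were found by symbol in RefSeq and none of these had a shared region within 10000 bp. The rest of the 23 could not be placed. This count therefore cannot show whether shared regions lie at such arrays, the capped ones included. The authors had assigned a gene to 75 of the shared regions (5.47%).

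Long genes held many of the regions. Of the 21896 protein-coding genes, 526 were overlapped by a shared region, and their median length was 105324 bp, against 17149 bp for all. Of the 2428 genes over 100000 bp, 11.0% held one, compared with 1.33% of the shorter genes. Of these, 6 held 3 or more and were picked for that count: Nrxn3, which encodes a synaptic adhesion protein, and Prkg1, which encodes a cGMP-dependent kinase, held 4 each, and Antxr2, an anthrax toxin receptor gene, Dpp10, Nrg3, a neuregulin gene, and Ralyl held 3 each. Antxr2 was 146330 bp long, and the other 5 ran from 710633 bp (Ralyl) to 1612235 bp (Nrxn3). A longer gene has more room for a region by its length alone. The same shares were not computed for all merged regions, so no preference for long genes is read from these values.

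Among the autosomes and chromosome X, the share of regions called by all 9 replicates was lowest on chromosome 8 and highest on chromosome 19. It was 0.338% (Wilson 95% interval 0.255 to 0.446%) and 0.615% (0.457 to 0.827%). Chromosome Y had a higher share, 30 of 2699 regions (1.11%, Wilson 95% interval 0.780 to 1.58%). Per Mb up to the last peak, however, Y held 0.330 shared regions, fewer than chromosome 8 (0.379) and chromosome 19 (0.701). The 30 regions on Y had a median score of 280, and 3 of them lay inside a RefSeq gene. The share inside a gene was not computed for all regions on Y, so nothing is read from this count. The mice were of either sex by the labels, with no sex given per sample. Within 5000 bp of each other lay 24 of the shared regions, in 10 clusters. The 2 clusters of 4 were the one on chromosome 2 and one at chrX:123036436-123042905, whose median scores were 221 to 401.

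The treatments were compared by the rank of a region among all regions of its replicate, because the scores differ in scale between libraries. That rank also depends on how many regions a replicate called. This number was 20977 to 28296 without stimulation, 39724 to 62885 after LPS and 31492 to 79424 with apoptotic cells. Its part in the counts below was not tested, so no difference between treatments is read from them. Many ranks were tied, since 8.26 to 14.4% of a replicate's peaks carried its commonest score. All 3 LPS ranks were above all 3 unstimulated ranks in 86 shared regions (6.27%) and below them in 34 (2.48%). Of the 1449 regions called in all 6 of these replicates, 6.14% were higher (89) and 2.76% lower (40). The 1372 shared regions are themselves most of these 1449, so the shares could hardly differ and nothing is read from their likeness. With each score divided by the median of its replicate at the shared regions, 59 were higher and 116 lower (background 4.28% and 8.35%), so the direction of the balance turned with the scale. For apoptotic cells, 249 were higher by rank (18.1%) and 14 lower (1.02%), beside 17.6% (271) and 0.907% (14) of the 1543 regions called in all 6 replicates, most of which are again the shared regions themselves. On the scaled scores 60 were higher and 97 lower (background 4.6% and 7.19%), and the balance turned again. Leaving out LPS replicate 2 raised the count higher after LPS to 478, of 1538 regions selected anew. Leaving out unstimulated replicate 3 raised the count higher with apoptotic cells to 586, of 1379. A smaller group separates more often by construction, and shares over all regions called in the remaining replicates were not computed. Nothing is therefore read from these rises. The LPS and apoptotic cell comparisons share the unstimulated replicates, and their ranks and scores are the ones the selection used.

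The regions furthest above unstimulated by rank are given as values. The region chrX:147708261-147708436, in no gene, scored 99.8, 107 and 107 without stimulation, 362, 127 and 365 after LPS and 170, 218 and 147 with apoptotic cells, and was first in both comparisons. A region in Dpp10, which encodes a subunit of neuronal potassium channels, chr1:123341198-123341372, scored 99.8, 107 and 244 without stimulation and 268, 208 and 407 after LPS, so the scores overlapped although the ranks did not. The region chr19:14593668-14593849 in Tle4, a Groucho family corepressor gene, scored 96.2, 146 and 148 without stimulation and 218, 161 and 297 after LPS. In Heatr5a, chr12:51883195-51883471 scored 116, 104 and 260 without stimulation and 225, 232 and 334 with apoptotic cells, again with overlapping scores.

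Of the regions furthest below unstimulated, those that lay in protein-coding genes are given, a choice made after their values were seen. In Sipa1l1, a Rap GTPase activator gene, chr12:82295239-82295431 scored 267, 237 and 333 without stimulation and 122, 122 and 313 after LPS. In Prkdc, which encodes the catalytic subunit of the DNA-dependent protein kinase, chr16:15642536-15642992 scored 299, 368 and 343 without stimulation and 268, 98.5 and 232 after LPS, with no overlap of scores or ranks. In Adcy8, an adenylate cyclase gene, chr15:64753138-64753446 scored 216, 254 and 474 without stimulation and 168, 118 and 287 after LPS. In Zfp821, chr8:109707081-109707584 scored 347, 268 and 394 without stimulation and 314, 89.3 and 407 after LPS. The scores overlapped there although the ranks did not. With apoptotic cells, chr19:44751183-44751401 in Pax2, a developmental transcription factor gene, scored 186, 151 and 124 against 210.16, 218 and 351 without stimulation, and chr14:20349549-20349904 in Fam149b scored 164, 88.9 and 106 against 178, 191 and 237. With 3 replicates against 3, the smallest two-sided p that an exact permutation test of a single region can give is 0.1, and none was run.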

How the data were processed

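FRA-1 ChIP-seq peaks of peritoneal macrophages were analysed in 3 groups of 3 replicates (unstimulated, LPS, apoptotic cells). The authors deposited 1 peak table per group, in which a score per replicate, or -1 for no peak, is listed for each genome segment, with a gene where one was assigned. The submitters' processing notes name BWA 0.7.14, bedtools and the build mm10 (GRCm38), with no roles. The peak caller behind these tables is not given in the sources used here. Peaks seem to have been called per replicate, since each replicate has its own scores and edges. Libraries were 1x100 bp single reads, and their depth is unknown.

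A replicate's peaks were rebuilt by joining neighbouring segments of equal score, and peaks that overlapped or touched were merged into regions (Python 3.11.15, pandas 2.3.3, numpy 2.4.6). These steps were run on simulated sites. The sites lay too far apart for their peaks to meet, so the handling of neighbouring peaks was not tested. Coordinates are 1-based. Regions were placed against RefSeq genes and gene starts (GRCm38.p6) by their centre. The members and gene lists were chosen with earlier results of these data known. Named regions were the 10 of at most 2000 bp with the highest lowest score, the 5 widest, the 5 with the lowest score, those overlapping a window at a gene start, those at listed genes, and the 5 furthest above and below unstimulated by rank in each comparison. Genes near starts and genes with 3 or more regions were added after their values were seen. Intervals are Wilson 95% and cover counting error only. Alternatives were a score of at least 100, merging by at least 1 bp, a base covered by every replicate, regions of at most 2000 bp, distances of 100 and 5000 bp, scaled scores, the motif TGANTCA and leaving out each replicate. The 3 input samples were not analysed here. The values of 1 listed gene are not reported here.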

Additional observations from a re-analysis of the deposited data

How the results depend on the processing

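The number of shared regions was 1195 with a score of at least 100 in every replicate, and 1373 to 1825 when the replicates were left out in turn, with the highest value without unstimulated replicate 1. The share with a base covered by every replicate was 100% with a score of at least 100 and 99.9 to 100% with a replicate left out. The share near a gene start was 12.4% within 5000 bp and 0 within 100 bp, by construction of the distances, and 1.88 to 2.15% with a replicate left out. With scaled scores, 116 regions were lower after LPS, and 60 were higher and 97 lower with apoptotic cells. With a replicate left out, LPS was higher in 86 to 478 regions and lower in 34 to 121, and apoptotic cells were higher in 249 to 586 and lower in 14 to 66. The count higher after LPS moved by over 1.5 times without LPS replicate 2 (478), unstimulated replicate 3 (294), LPS replicate 3 (167) and unstimulated replicates 1 and 2 (145 each), and the count lower without LPS replicate 1 (121), unstimulated replicates 1 (96), 2 (73) and 3 (54) and LPS replicate 2 (71). For apoptotic cells the count higher moved so without unstimulated replicate 3 (586) and apoptotic cells replicate 2 (497), and the count lower without apoptotic cells replicates 3 (66) and 1 (43) and unstimulated replicates 1 (54), 2 (35) and 3 (26). A group of 2 has to clear fewer values than a group of 3, by construction. The regions were also selected anew each time, so these counts come from 1373 to 1825 regions. The median width was 207 to 233 bp, the median scores were 202 to 257 without stimulation, 297 to 391 after LPS and 248 to 281 with apoptotic cells, the share inside a gene was 46.4 to 48.3% and no window held the motif, each with a replicate left out. The other 40 values under the alternatives stayed within 1.5 times the count or within the spread or interval of the value. The lowest score moved by more than the SD over its 9 replicates in 3 of 40 named regions. No paired analysis was possible because no column of scores is tied to a mouse. Depth is unknown, so its part in the peaks that a replicate lacks was not tested.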
